A study of Mus musculus with 6 samples.

Results

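The vacuolar-type proton ATPase (V-ATPase) was examined in mouse osteoclasts through the RNA of its subunits, accessory proteins, assembly factors and regulators. Members were the rows of the deposited count table whose gene symbol was on a list of 34 V-ATPase genes, and 32 of the 34 were found among the 22601 genes of the table (*Atp6v1b1* and *Atp6v1e2* had no row). They comprised 10 genes of the membrane sector V0, 11 of the catalytic sector V1, 6 accessory and assembly genes, and 5 genes of the RAVE complex and other regulators. RNAseq covered 3 WT and 3 *Slc37a2* KO libraries, the latter from mice that lack the sugar transporter Slc37a2. The labels describe osteoclasts grown from bone marrow macrophages (BMMs) of both genotypes, over 5 days in RANKL (10 ng/ml) with M-CSF (2 ng/ml), whereas the paper's RNAseq methods describe RNA of whole femurs and tibias from mice of both sexes. The paper's results section, like the labels, describes the RNAseq comparison as one of osteoclasts. The KO mice were homozygous for the *Slc37a2* tm2a(KOMP)Wtsi gene-trap allele, derived from a single embryonic stem cell clone and kept on the C57BL/6N background, with WT littermates as controls. Column headings give each library an animal number, the letter F, whose meaning is not stated and which was not read as a sex, and an age of 11 weeks.

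The V-ATPase pumps protons across membranes with the energy of ATP. In V1, the A and B subunits hydrolyse ATP and turn a central stalk, which drives a ring of c subunits past the a subunit of V0. Bone-resorbing osteoclasts place the pump in secretory lysosomes (SLs) and in the ruffled border, where it acidifies the resorption space, and loss of the a3 subunit, encoded by *Tcirg1*, causes osteopetrosis.

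Among the WT libraries, K090 held 39250356 counts, L080 27552183 and L082 31396766. Among the *Slc37a2* KO libraries, K089 held 29279260 counts, L078 42522292 and L081 29663713. Counts of *Slc37a2* itself were 75789, 60889 and 76013 in K090, L080 and L082, and 1233, 1446 and 1043 in K089, L078 and L081. Every KO library was thus far below every WT library, as the labels require. The KO level was 1.77% ± 0.310 (SD, n = 3) of the WT mean in CPM (edgeR's unit of counts relative to the TMM-scaled library size), with a log2 fold change of -5.82 (SE 0.20, Benjamini-Hochberg adjusted p 7.07e-04 by edgeR's quasi-likelihood test).

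Osteoclast markers were abundant in every library. All 9 listed markers were found, and they summed to 36621, 48702 and 55452 CPM in WT libraries K090, L080 and L082 and to 72970, 40153 and 64756 CPM in KO libraries K089, L078 and L081, led by the protease gene *Mmp9* (mean 23835 CPM). Neutrophil, B lymphoid and red cell markers were at or near 0. The 5 neutrophil markers found of 7 listed summed to at most 1.25 CPM, led by *S100a8* (mean 0.540 CPM), and *Elane* and *Ly6g* had no row. The 3 B lymphoid markers found of 4 listed summed to at most 0.270 CPM, led by *Cd79b* (mean 0.144 CPM), and *Ms4a1* had no row. Among red cell markers, *Hba-a1* had 2 counts over all libraries, and *Hbb-bs* and *Alas2* had no row. Osteoblast and stromal markers were present, with 10 of 10 found and sums of 790, 1172 and 1546 CPM in WT and 685, 1741 and 608 CPM in KO libraries, led by *Col1a1* (mean 531 CPM). The osteocyte and osteoblast markers *Sost*, *Dmp1* and *Bglap* were too low to be tested.

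V-ATPase transcripts took 1.73%, 1.89% and 2.08% of the counts of WT libraries K090, L080 and L082 and 2.35%, 1.72% and 2.30% in KO libraries K089, L078 and L081. The B2 subunit gene *Atp6v1b2* ranked 14 among all listed genes by mean CPM, the A subunit gene *Atp6v1a* 17, *Tcirg1* 24 and *Atp6v0d2* 25. Levels of different genes are compared below as CPM per kilobase of annotated exon. Summed on that scale, V0 reached 1965, 2155 and 2522 in WT and 3018, 1931 and 2903 in KO libraries, and V1 reached 1902, 2079 and 2419 in WT and 2905, 1851 and 2784 in KO libraries. The ratio of the V1 sum to the V0 sum varied little, at 0.964 ± 0.00424 in WT and 0.960 ± 0.00213 in KO (SD, n = 3 each), and ran from 0.958 to 0.968 over the 6 libraries. Both sectors thus went up and down together from library to library, and their balance overlapped between genotypes. The value of this ratio depends on the length used, and it was taken on exonic length alone. RAVE and the other regulators were far lower, with sums from 40.1 to 53.7 CPM per exonic kilobase.

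**Figure D1:**
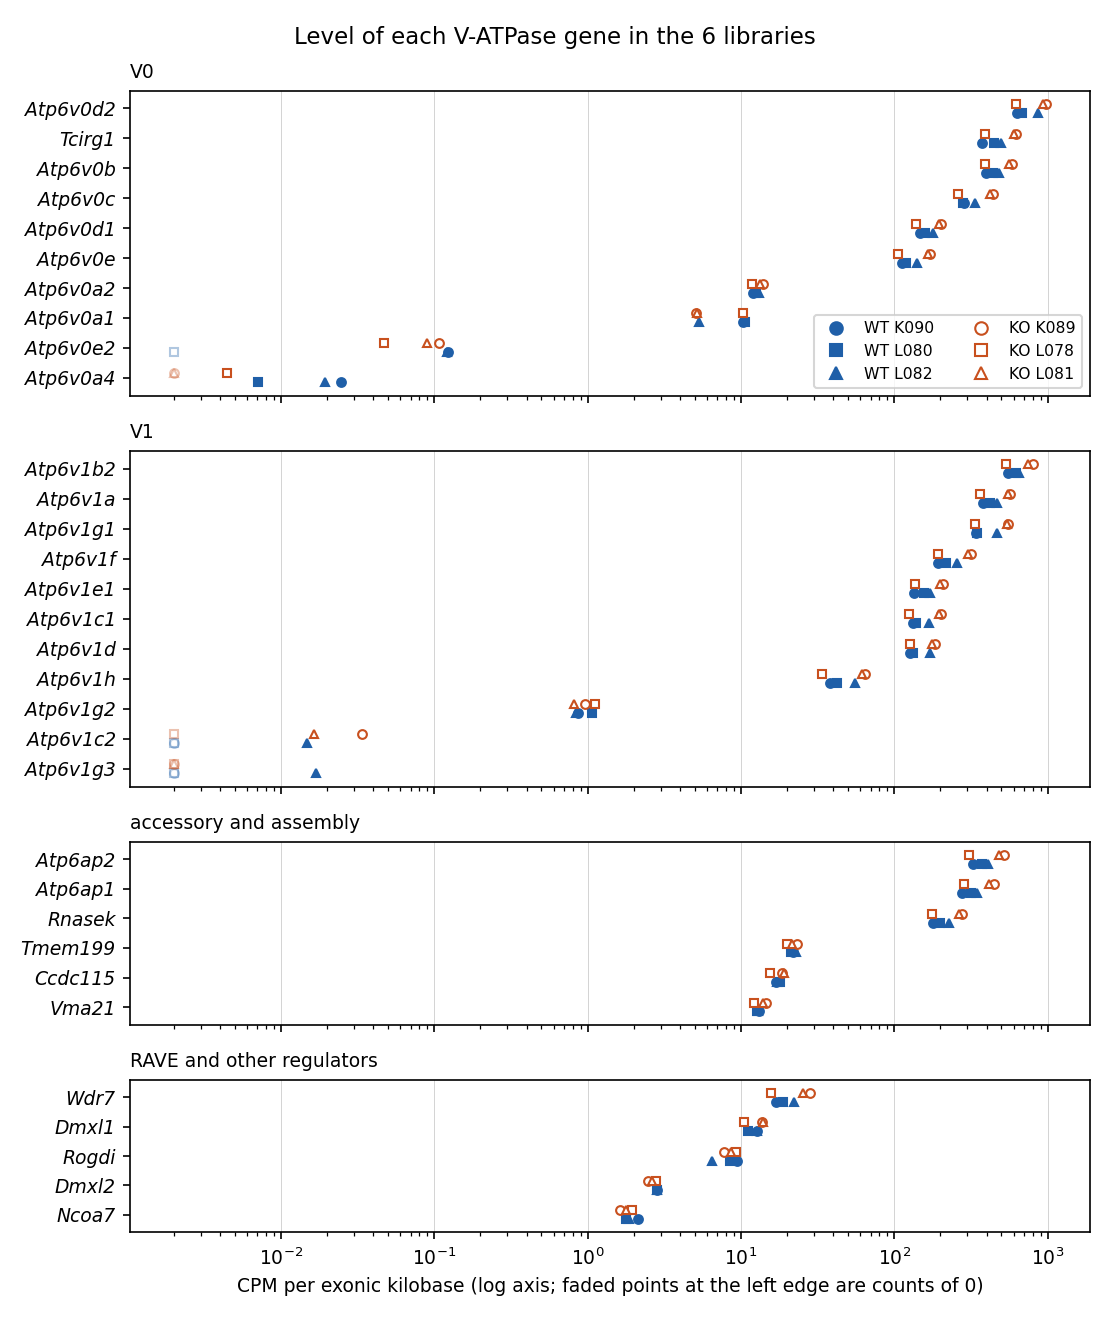
Level of the 32 V-ATPase genes in each library, as CPM per exonic kilobase on a log axis, by sector, with filled symbols for WT and open symbols for KO, and faded symbols at the left edge for counts of 0. Most V0 and V1 genes lie above 100 CPM per exonic kilobase, and *Atp6v0a4*, *Atp6v0e2*, *Atp6v1c2* and *Atp6v1g3* lie below 0.2 in every library.

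Within V0, the a subunit forms the proton half-channels and comes in several isoforms. *Tcirg1* (a3, chr19:3896050-3907133, GRCm38) supplied nearly all of the a-subunit RNA. It made up 94.3%, 95.1% and 96.4% of the a-subunit level per exonic kilobase in WT libraries K090, L080 and L082. In KO libraries K089, L078 and L081 it made up 97.0%, 94.7% and 97.0%. Its level was 371, 445 and 500 CPM per exonic kilobase in WT and 625, 390 and 601 in KO libraries. *Tcirg1* was highest in KO libraries K089 and L081, while KO library L078 lay among the WT libraries, so the groups overlapped. In CPM these were 1708, 2049 and 2303 in WT and 2879, 1794 and 2768 in KO libraries, with a log2 fold change of 0.30 (SE 0.21, 95% confidence interval -0.22 to 0.81, Benjamini-Hochberg adjusted p 0.969 by edgeR's quasi-likelihood test). This rested on single libraries, at 0.19 without K090, 0.20 without K089 and 0.48 without L078. *Atp6v0a2*, whose a2 isoform is known from the Golgi apparatus and endosomes, had 81.0, 84.1 and 88.3 CPM in WT and 93.9, 79.1 and 89.6 CPM in KO libraries. All 6 values lay close together and the groups overlapped. Its log2 fold change was 0.05 (SE 0.08, interval -0.14 to 0.24, adjusted p 0.969 in the same edgeR test; 0.02 without K090 or K089, 0.11 without L082 and 0.12 without L078), and its share of the a-subunit level was 2.75% ± 0.275 in WT and 2.39% ± 0.403 in KO (SD, n = 3 each). It shares 8.35% of its 50-base runs with the antisense gene *4930404A12Rik*, and reads of the pair cannot be told apart without strand.

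*Atp6v0a1*, encoding the a1 isoform best known from neurons, ran against the abundant genes of the pump. It had 67.7, 69.4 and 34.7 CPM in WT libraries K090, L080 and L082 and 33.5, 67.2 and 33.7 CPM in KO libraries K089, L078 and L081. The libraries fell at a higher and a lower level, with K090, L080 and L078 at the higher one and L082, K089 and L081 at the lower one, so that both genotypes occupied both levels. The log2 fold change was -0.35 (SE 0.37, interval -1.25 to 0.55, Benjamini-Hochberg adjusted p 0.969 by edgeR's quasi-likelihood test). It was -0.77 without L078 and -0.59 without L082, and -0.16, -0.17, -0.19 and -0.21 without K089, L081, L080 and K090. Its share of the a-subunit level per exonic kilobase was 2.63%, 2.26% and 1.02% in WT and 0.792%, 2.49% and 0.830% in KO libraries. *Tcirg1* exceeded *Atp6v0a1* per exonic kilobase by a factor of 35.9, 42.1 and 94.6 in WT and 122, 38.0 and 117 in KO libraries. *Atp6v0a2* exceeded *Atp6v0a1* in all 6 libraries per exonic kilobase, but only in 3 when the length of the principal transcript was used, so the order of these minor isoforms depended on the length. *Atp6v0a4*, the kidney isoform a4, had 5, 1 and 3 counts in WT and 0, 1 and 0 in KO libraries, too few to be tested.

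The d subunit couples the c ring to the stalk, and its d2 isoform is known for its part in osteoclast fusion and maturation. *Atp6v0d2* (chr4:19876841-19922605, GRCm38) made up 81.2%, 81.2% and 82.9% of the d-subunit level per exonic kilobase in WT libraries and 82.9%, 82.0% and 82.8% in KO libraries. It exceeded *Atp6v0d1*, the d1 isoform found in most tissues, by a factor of 4.49 ± 0.305 in WT and 4.73 ± 0.162 in KO (SD, n = 3 each), and per coding kilobase by 6.82 ± 0.464 and 7.19 ± 0.246. The ratio overlapped between genotypes on both lengths. *Atp6v0d2* had 1719, 1856 and 2354 CPM in WT and 2659, 1699 and 2542 CPM in KO libraries. Libraries K089 and L081 were the highest and L078 the lowest, and the groups overlapped, with a log2 fold change of 0.22 (SE 0.21, interval -0.29 to 0.73, adjusted p 0.969 in the same edgeR test). *Atp6v0d1* had 263, 284 and 321 CPM in WT and 362, 247 and 349 CPM in KO libraries. It showed the same order, with a log2 fold change of 0.14 (SE 0.16, interval -0.25 to 0.53, adjusted p 0.969 in the same edgeR test). With 1 library left out, the log2 fold changes of *Atp6v0d2* and *Atp6v0d1* were 0.13 and 0.08 without K090, 0.13 and 0.07 without K089, 0.39 and 0.25 without L082, and 0.40 and 0.30 without L078.

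*Atp6v0d2* had the highest level of V0 per exonic kilobase, at 787 ± 159 over the 6 libraries (SD, n = 6), but per coding kilobase *Atp6v0c*, which encodes the c subunit of the proton-carrying ring, was higher (2459 against 2036). Per kilobase of the principal transcript, *Atp6v0b* (975) and *Atp6v0c* (967) were both above *Atp6v0d2* (842). *Atp6v0b* shares 8.59% of its 50-base runs with the antisense gene *Gm12841*, so its count is uncertain. *Atp6v0c* also had the lowest p of V0. It had 969, 954 and 1135 CPM in WT and 1488, 888 and 1429 CPM in KO libraries. Again K089 and L081 stood above every WT library and L078 below every one. The log2 fold change was 0.32 (SE 0.21, interval -0.19 to 0.82, unadjusted p 0.178, Benjamini-Hochberg adjusted p 0.969 by edgeR's quasi-likelihood test). It was 0.21 without K089 and 0.52 without L078. Its transcripts share 10.8% of their 50-base runs with *Atp6v0c-ps2* and *Atp6v0c-ps1*, so that some of its reads could have been assigned to these pseudogenes. The *Atp6v0c-ps2* row held a mean of 10.7 CPM in WT and 10.2 CPM in KO libraries. RNA of the small e subunit came almost entirely from *Atp6v0e*. Its paralog *Atp6v0e2* made up at most 0.110% of the e-subunit level per exonic kilobase in any library. *Atp6v0e2* had 21 counts over the WT and 18 over the KO libraries.

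V1 held a single well-expressed gene for every subunit. *Atp6v1b2*, the B subunit gene of most tissues, was the highest V1 gene per exonic kilobase, at 655 ± 107 (SD, n = 6). It had 2940, 3326 and 3476 CPM in WT and 4275, 2847 and 3979 CPM in KO libraries. As for *Atp6v0d2*, *Atp6v0d1* and *Atp6v0c*, K089 and L081 lay above the WT libraries and L078 below them. The log2 fold change of *Atp6v1b2* was 0.19 (SE 0.18, interval -0.25 to 0.63, Benjamini-Hochberg adjusted p 0.969 by edgeR's quasi-likelihood test). It was 0.10 without K089, 0.12 without K090 and 0.35 without L078. The lowest p of V1 was that of *Atp6v1f*, encoding a subunit of the central stalk. It had 206, 229 and 273 CPM in WT and 336, 206 and 322 CPM in KO libraries. L078 matched the lowest WT library, and the log2 fold change was 0.29 (SE 0.21, interval -0.21 to 0.78, unadjusted p 0.211, adjusted p 0.969 in the same edgeR test; 0.19 without K089 and 0.48 without L078). Of the 50-base runs of *Atp6v1f*, 11.2% also occur in another annotated gene or pseudogene, as do 19.2% of those of *Atp6v1g1*, so both counts are uncertain. In the peripheral stalks, *Atp6v1g1* supplied nearly all of the G-subunit RNA. *Atp6v1g2*, known from neurons, was at 2.05 to 2.80 CPM, at most 0.331% of the G-subunit level per exonic kilobase in any library. This highest share, in L078, was 0.715% per coding kilobase and 0.729% in raw counts. *Atp6v1g3*, known from kidney, had 1 count in all. Likewise *Atp6v1c1* had 695 to 1139 CPM, while *Atp6v1c2* had 4 counts in all. The limit that a count of 0 allows, taken as 3 counts, came to 0.0306 CPM over the WT and 0.0296 CPM over the KO libraries and covers counting error only. The H subunit gene *Atp6v1h*, whose product is needed for pump activity and silences free V1, was the lowest of the V1 genes with over 100 CPM, per exonic kilobase (49.3 ± 12.8, SD, n = 6), but per kilobase of the principal transcript *Atp6v1d* was lower (192 against 234).

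Among the accessory subunits, *Atp6ap2*, encoding the prorenin receptor, was the highest per exonic kilobase, at 404 ± 85.1 (SD, n = 6), and *Atp6ap1*, encoding Ac45, was at 347 ± 69.6. This order turned with the length of the principal transcript (455 against 480). *Atp6ap2* had 857, 982 and 1067 CPM in WT and 1366, 807 and 1268 CPM in KO libraries. The groups overlapped through L078, the lowest library, and the log2 fold change was 0.24 (SE 0.21, interval -0.26 to 0.75, Benjamini-Hochberg adjusted p 0.969 by edgeR's quasi-likelihood test). *Atp6ap1* had 837, 964 and 1041 CPM in WT and 1349, 857 and 1255 CPM in KO libraries. Here K090 was the lowest and L078 the next, and the log2 fold change was 0.28 (SE 0.19, interval -0.17 to 0.74, unadjusted p 0.177, adjusted p 0.969 in the same edgeR test). With 1 library left out, *Atp6ap2* and *Atp6ap1* ran from 0.13 and 0.18 (without K089) to 0.44 and 0.46 (without L078), and *Atp6ap2* was 0.16 without K090. *Rnasek*, whose product is the f subunit, had 154 to 245 CPM, but 62.4% of its 50-base runs also occur in the read-through gene *Gm21988*, so its count is uncertain, as is that of *Ccdc115* (15.5% shared). The assembly factors of the endoplasmic reticulum, *Vma21*, *Tmem199* and *Ccdc115*, were much lower and steadier. They ranged from 38.2 to 106 CPM, with a coefficient of variation over the 6 libraries of 6.54%, 5.29% and 7.55%, against 20.1% and 21.1% for *Atp6ap1* and *Atp6ap2*.

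The RAVE complex reattaches V1 to V0 and is built in mammals from DMXL1 or DMXL2 with WDR7 and ROGDI. *Wdr7* was its highest gene per exonic kilobase (21.2 ± 4.92, SD, n = 6), with 172, 192 and 225 CPM in WT and 287, 160 and 258 CPM in KO libraries. Like most of the abundant members, it was lowest in L078 and highest in K089. Its log2 fold change was 0.26 (SE 0.23, interval -0.29 to 0.80, Benjamini-Hochberg adjusted p 0.969 by edgeR's quasi-likelihood test). It was 0.11 without K089, 0.17 without K090, 0.40 without L082 and 0.47 without L078. *Dmxl2* was the single tested member whose groups did not overlap, at 37.8, 37.6 and 37.6 CPM in WT and 32.9, 37.2 and 34.6 CPM in KO libraries. Library L078 missed the lowest WT value by a small margin, and under upper quartile scaling the groups overlapped. The log2 fold change was -0.11 (SE 0.07, interval -0.27 to 0.05, unadjusted p 0.146, adjusted p 0.969 in the same edgeR test; -0.05 without K089). *Dmxl1* exceeded *Dmxl2* per exonic kilobase by a factor of 4.29 ± 0.303 in WT and 4.87 ± 1.00 in KO (SD, n = 3 each). The factor was 7.10 and 8.06 per coding kilobase and 6.64 and 7.54 per kilobase of the principal transcript. *Rogdi* was at 15.3 to 22.1 CPM and *Ncoa7*, whose TLDc protein binds the pump, at 17.2 to 22.4 CPM.

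Of the 32 members, 28 passed the filter on low counts, each with over 1 CPM in every library, and *Atp6v0a4*, *Atp6v0e2*, *Atp6v1c2* and *Atp6v1g3* did not. A gene was called where its log2 fold change exceeded 1.5 in size at a Benjamini-Hochberg adjusted p below 0.05. None of the 28 was called between genotypes by edgeR's quasi-likelihood test, where 0.00742% of all 13483 tested genes were called, *Slc37a2* alone. None had an unadjusted p below 0.05 in that test, against 0.712% of all genes. With DESeq2's Wald test 0 of the 28 were called (0.0148% of all genes) and 0 had an unadjusted p below 0.05 (0.512%). With edgeR's likelihood ratio test these were also 0 (0.0148%) and 0 (0.460%). The Benjamini-Hochberg adjusted p ran from 0.969 to 0.971 over the members in edgeR's quasi-likelihood test. Without the filter, *Atp6v0a4* alone had an unadjusted p below 0.05 (0.0327), on 10 counts in all, against 0.765% of all 22601 genes. With 3 libraries against 3, an exact two-sided permutation test of a single gene cannot go below p = 0.1. The groups did not overlap for 1 of 28 members, against 4.31% of all genes, and this was *Dmxl2*, with all KO libraries below all WT libraries (2.81% of all genes). Under upper quartile scaling this was 0 of 28 (3.98% of all genes), and without the filter 2 of 32 (4.48%), where *Atp6v0a4* entered. The log2 fold change was above 0 for 24 of 28 members, against 43.8% of all genes, with a median of 0.22 (-0.35 to 0.32) against -0.02 over all genes. By sector it was above 0 for 7 of 8 V0 genes (median 0.22), 9 of 9 V1 genes (0.23), 5 of 6 accessory and assembly genes (0.16) and 3 of 5 RAVE and other regulator genes (0.06). Between the libraries left out, the median ran from 0.13 (without K089) to 0.39 (without L078) for V0 and from 0.14 to 0.41 for V1, without the same libraries. It was 0.14 and 0.15 for V0 and V1 without K090, and 0.34 and 0.36 without L082. For accessory and assembly genes it ran from 0.08 (without K089) to 0.28 (without L078), and for RAVE and other regulators from -0.03 (without L082) to 0.09 (without K090), with 0.03, 0.02, 0.01 and 0.00 without K089, L078, L081 and L080. The 95% confidence interval lay within -1 to 1 for 27 of 28 members, against 78.6% of all genes, and *Atp6v0a1* was the exception. In bulk RNA, fewer cells of a type and less RNA per cell cannot be told apart.

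**Figure D2:**
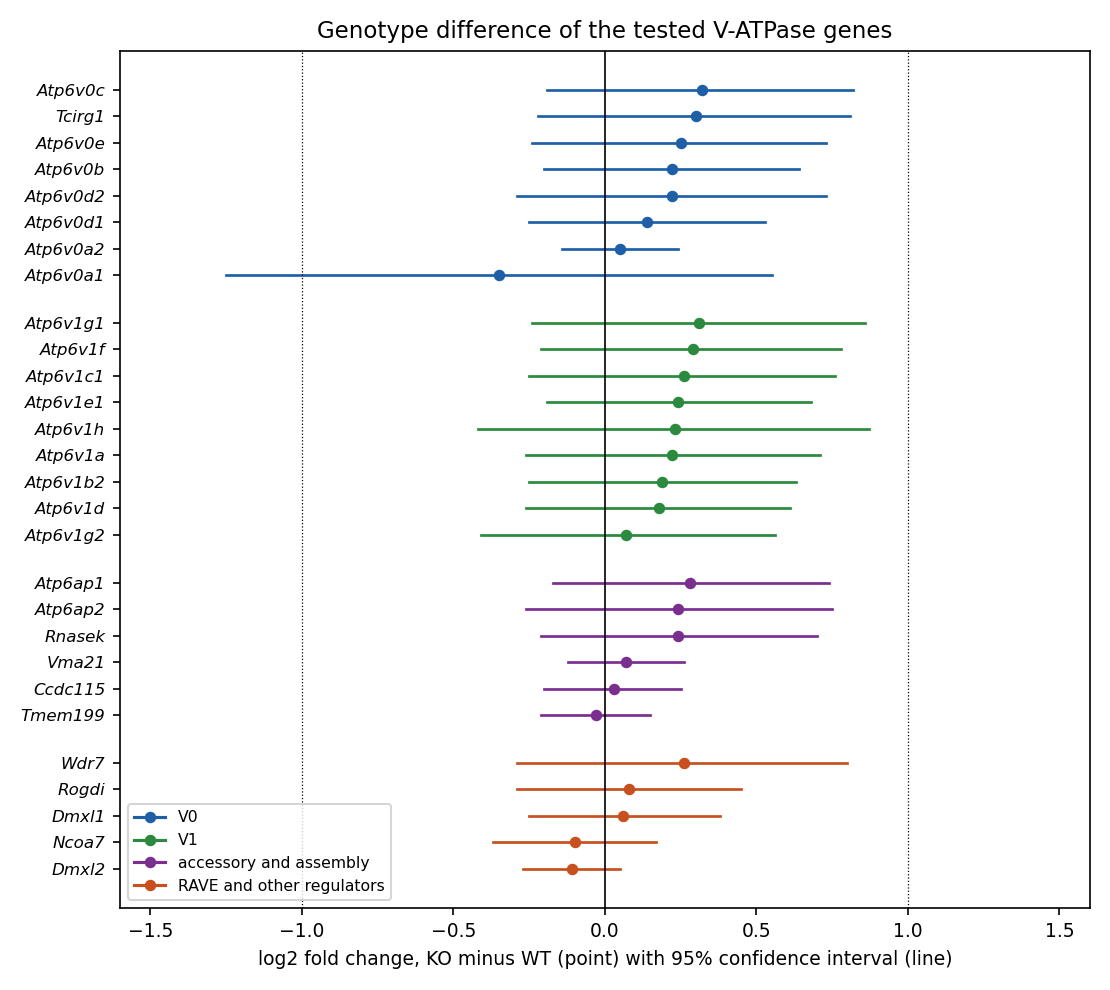
Log2 fold change (KO minus WT) of the 28 tested V-ATPase genes as points, with 95% confidence intervals as lines, coloured by sector, and dotted lines at -1 and 1. Of the points, 24 lie above 0 and every interval includes 0.

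The counts of groups that do not overlap and of unadjusted p below 0.05 depended on KO library L078. The number of members called (0) and the number with a log2 fold change above 0 (24) did not change without it. Without L078, 22 of 28 members had both other KO libraries above every WT library, where 19.6% of all genes did, and *Atp6v0a1* and *Dmxl2* had both below, where 22.1% of all genes did, in all 24 of 28 members against 41.6% of all genes. The groups then overlapped for *Atp6v1g2*, *Tmem199*, *Rogdi* and *Ncoa7* alone. Unadjusted p was below 0.05 for 20 of 28 members, against 20.1% of all genes, but none was called (0.00736% of all genes). The lowest Benjamini-Hochberg adjusted p was 0.227 by edgeR's quasi-likelihood test, a value that most of the abundant members shared. The median log2 fold change of the members was 0.39 without L078. It was 0.12 without K089, 0.14 without K090 and 0.34 without L082, so that the size of the median rested on single libraries of both genotypes while its sign did not. Without WT library L082, *Atp6v0a1* joined *Dmxl2* among the members with all KO libraries below all WT libraries, where 9.41% of all genes lay.

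The pump genes varied together across libraries. The 19 members with a mean over 100 CPM had a median coefficient of variation of 20.2% over the 6 libraries (11.4% to 25.9%), against 7.85% for the 2208 genes of the same range. Relative to each gene's own mean, their median log2 level was -0.27, -0.14 and 0.07 in WT libraries K090, L080 and L082 and 0.35, -0.31 and 0.29 in KO libraries K089, L078 and L081. K089 was the highest library for 18 of the 19 (22.6% of all genes) and L081 for the other one (11.7% of all genes), and the lowest was L078 for 15 and K090 for 4. Of the 9 tested members at lower levels, *Atp6v0a2*, *Vma21*, *Tmem199* and *Ccdc115* were also lowest in L078. *Dmxl2*, *Rogdi* and *Ncoa7* were highest in K090 and *Atp6v1g2* in L078, so these did not follow the abundant members either. *Atp6v0a1* lay opposite to the median of the abundant members in all 6 libraries, with 0.49, 0.52 and -0.47 in WT and -0.52, 0.48 and -0.51 in KO libraries. Among libraries headed K, the KO library had the higher V-ATPase sum (25302 against 16682 CPM). Among those headed L, the KO libraries at 16213 and 24167 CPM lay below and above both WT libraries at 18390 and 20914 CPM. The labels do not say what the letter means.

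Levels of some marker lists varied along with the pump genes or opposite to them. The 7 tested osteoblast and stromal markers did not follow the pump genes. Their median relative log2 level was -0.32, 0.22 and 0.64 in WT libraries K090, L080 and L082. In KO libraries K089, L078 and L081 it was -0.49, 0.76 and -0.69, so it was highest in L078 and lowest in L081. The summed osteoclast markers had the same library order as the summed V-ATPase genes, except that the lowest pair, K090 and L078, changed places. *Mmp9*, *Acp5* and *Ctsk* led this sum (means of 23835, 13453 and 13174 CPM), and not every other marker followed it. *Calcr* was highest in L080 (149 CPM) and lowest in L082 (88.8 CPM), and *Ocstamp* was lowest in L080 (244 CPM). V-ATPase genes summed to 45.6%, 37.8% and 37.7% of the osteoclast marker sum in WT and 34.7%, 40.4% and 37.3% in KO libraries, with overlapping groups. Macrophage markers were all found (10 of 10), with sums of 7218, 6312 and 3391 CPM in WT libraries K090, L080 and L082 and 3324, 6616 and 3668 CPM in KO libraries K089, L078 and L081, led by *Lyz2* (mean 2547 CPM). All of them but *Csf1r* were higher in K090, L080 and L078, where *Atp6v0a1* was high, than in the other libraries. *Csf1r* (mean 1881 CPM) was highest in K089 and lowest in L078, as most of the abundant pump genes were. The 8 interferon response genes, all found, had the split of *Atp6v0a1*, with sums of 127, 64.2 and 15.5 CPM in WT and 9.98, 75.1 and 22.3 CPM in KO libraries, led by *Oasl2* (mean 16.0 CPM). The 5 proliferation genes, all found, summed to 807, 564 and 581 CPM in WT and 381, 770 and 476 CPM in KO libraries, led by *Mki67* (mean 284 CPM). K090 and L078, in which the pump genes were lowest, also had the largest totals of counts and the largest TMM factors (1.04 and 1.06), and K089 and L081 had the smallest factors (0.931 and 0.954). The part of these cell markers, states and library properties in the V-ATPase result was not tested.

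**Figure D3:**
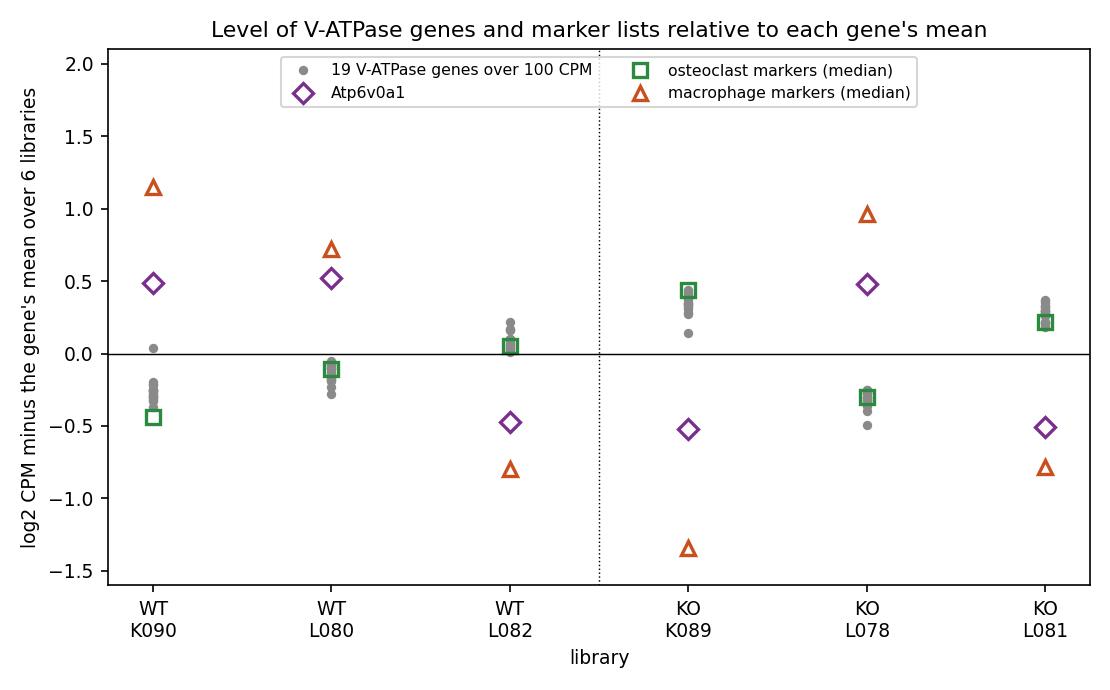
Log2 CPM minus each gene's mean over the 6 libraries, for the 19 V-ATPase genes over 100 CPM (grey points), *Atp6v0a1* (diamonds), and the medians of the osteoclast (squares) and macrophage markers (triangles), by library and genotype. The grey points lie with the osteoclast markers, highest in K089 and L081, and *Atp6v0a1* lies on the side of the macrophage markers in all 6 libraries.

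Other genes of the acidification pathway were examined in the same way. Of 23 partner genes, all tested, edgeR's quasi-likelihood test called 0 (0.00742% of all genes), with 0 at an unadjusted p below 0.05 (0.712%). DESeq2's Wald test and the likelihood ratio test each called 0 (0.0148%), with 0 at an unadjusted p below 0.05 (0.512% and 0.460%). Without KO library L078, 10 of the 23 had an unadjusted p below 0.05, against 20.1% of all genes, and 0 were called. The 6 genes that work beside the pump in acid secretion all had log2 fold changes above 0 (median 0.25, 0.16 to 0.42). Their size rested on single libraries. These 6 genes ran from 0.12 to 0.23 without K089 and from 0.26 to 0.68 without L078. They include the chloride exchanger gene *Clcn7*, with 888, 1086 and 1221 CPM in WT and 1653, 882 and 1487 CPM in KO libraries, and the bicarbonate exchanger gene *Slc4a2*, with 810, 903 and 1186 CPM in WT and 1643, 775 and 1452 CPM in KO libraries. Both were highest in K089 and L081 and lowest in L078, and so were *Ostm1*, *Snx10* and *Plekhm1*, but *Car2* was highest in L081 (341 CPM) and lowest in WT library L082 (253 CPM). The 6 genes summed to 3312, 3775 and 4281 CPM in WT and 5649, 3238 and 5223 CPM in KO libraries, in the same library order as the sum of the pump genes. The 9 genes of Ragulator and nutrient sensing, which meet the pump on the lysosome, had a median log2 fold change of 0.01, with 8 of 9 above 0. This count rested on values near 0, such as 0.00 for *Rraga*. *Lamtor4* was -0.01 without K090 and -0.02 without L081. *Flcn* was -0.02 without L082 and -0.01 without L081, and both genes were 0.06 without L078. *Rragc*, at -0.05, was 0.05 without K090. The 4 further TLDc genes had a median of 0.16, with 4 of 4 above 0. Both rested on single libraries. *Meak7* was -0.05 without K089 and -0.00 without K090. *Oxr1*, *Tldc2* and *Tbc1d24* were 0.08, 0.08 and 0.24 without K090, and 0.19, 0.35 and 0.31 without L080. *Tldc2* had few counts, from 19 to 34 per library (0.515 to 0.771 CPM). The 4 MiT-TFE factors, which drive lysosomal genes including those of the pump, had a median of -0.08 with 0 of 4 above 0, although *Tfeb* was 0.01 without K089 and *Tfe3* 0.01 without K090. Without K089, *Tfe3*, *Mitf* and *Tfec* were at -0.02, -0.06 and -0.10, so the size of this median rested on single libraries. *Mitf* (log2 fold change -0.08, SE 0.05, unadjusted p 0.164) and *Tfec* (-0.13, SE 0.07, unadjusted p 0.132) had all KO libraries below all WT libraries, as did 2.81% of all genes. For *Tfec* this rested on 56.5 CPM in L081 against 56.7 CPM in L082, and the log2 fold change was -0.06 without L080, while that of *Mitf* was -0.03 without L082. Both had a Benjamini-Hochberg adjusted p of 0.969 by edgeR's quasi-likelihood test.

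The MiT-TFE factors bind sequences with the core CACGTG, and the promoters of the members were searched for it because the abundant members varied together. RefSeq promoter windows (250 bases before to 50 after the start, GRCm38.p6) were at hand for 25 of the 34 listed genes, and not for *Atp6v0a2*, *Atp6v0d2*, *Atp6v1b2*, *Atp6v1c1*, *Atp6v1g1*, *Atp6v1h*, *Rnasek*, *Dmxl1* and *Wdr7*. CACGTG, which reads the same on both strands, was present for 6 of the 25 (24.0%), against 8.09% of the 27025 genes with windows and 7.15% of all 32851 windows. The longer GTCACGTG, which contains it, was present on either strand for 4 of the 25 (16.0%), against 2.55% of all genes and 2.25% of all windows. The genes and windows set against the members were not matched to them in expression or base composition, so an excess particular to the pump was not tested. A match describes the sequence and does not show that a factor binds there. The stretches around CACGTG are given on the strand of each gene, with the motif in capitals and the GRCm38.p6 position of each stretch given first, since they let the flanks be compared. *Atp6v0b* (minus strand, chr4:117887322-117887385) has it 2 times, *Atp6v0d1* (minus strand, chr8:105566042-105566087), *Atp6v0e* (plus strand, chr17:26676379-26676424), *Atp6v1a* (minus strand, chr16:44139365-44139410) and *Ccdc115* (minus strand, chr1:34439688-34439733) have it 1 time each, and *Vma21* has it in an outer (plus strand, chrX:71815830-71815863) and an inner window (plus strand, chrX:71816686-71816731).
Atp6v0b: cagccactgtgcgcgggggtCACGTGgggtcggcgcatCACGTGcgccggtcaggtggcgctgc
Atp6v0d1: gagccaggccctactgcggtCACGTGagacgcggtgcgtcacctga
Atp6v0e: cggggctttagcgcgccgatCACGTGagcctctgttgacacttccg
Atp6v1a: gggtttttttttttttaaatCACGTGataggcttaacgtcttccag
Ccdc115: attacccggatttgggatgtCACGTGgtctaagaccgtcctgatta
Vma21 outer: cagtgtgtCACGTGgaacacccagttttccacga
Vma21 inner: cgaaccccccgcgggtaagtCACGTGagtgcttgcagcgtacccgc

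The motif lay at different distances from the start, from base -242 (outer *Vma21* window) to base 3 (*Atp6v0e*), counted from the annotated start of each window. Of the 6 genes with it, *Atp6v0b*, *Atp6v0d1*, *Atp6v0e* and *Atp6v1a* were among the 19 abundant members that varied together, while *Vma21* and *Ccdc115*, at lower levels, had log2 fold changes of 0.07 and 0.03 and spanned 0.25 and 0.31 log2 units over the 6 libraries. The other abundant members with windows, *Tcirg1*, *Atp6v0c*, *Atp6v1d*, *Atp6v1e1*, *Atp6v1f*, *Atp6ap1* and *Atp6ap2*, held no CACGTG in them.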

How the data were processed

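RNA of 3 WT and 3 *Slc37a2* KO libraries was sequenced on an Illumina NovaSeq instrument. The submitters' processing notes name bcl2fastq 2.20.0.422, edgeR 3.30.3 and the build mm10. Which aligner, counting tool, strand setting and annotation were used is not given in the sources used here. Whole-number counts were deposited by the authors for 22601 gene symbols, without normalization. The deposited log2 columns hold the authors' fold change and mean CPM, the deposited score column their likelihood ratio, and the deposited p-value and FDR columns the results of that edgeR comparison. None of these was used. Columns were assigned to genotypes from their headings, which carry animal numbers taken here as separate animals, and 0 columns belonged to other samples. The chi-square per degree of freedom was at least 6.72 for every pair of libraries, so none was a duplicate.

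Genotypes were compared with edgeR 4.0.16 in R 4.3.3 (filterByExpr defaults, TMM factors 0.931 to 1.06, glmQLFit and glmQLFTest, genotype as single term, prior degrees of freedom 2.35, biological coefficient of variation 20.8%), with Benjamini-Hochberg adjustment over 13483 genes. The fit was tested on simulated data. DESeq2 1.42.0 served as an alternative, and Python 3.11.15 with matplotlib 3.10.9 drew the figures. Exon, coding and principal transcript lengths came from GENCODE M21 (GRCm38). Paralogs of a subunit shared no run of 50 bases with each other. Relative log2 levels used CPM plus 0.5. The members and lists were chosen with earlier results of these data known, so no test was made on them as a set. Genes given in full were the paralogs of the a and d subunits, members with groups that do not overlap, and the member with the lowest p and with the highest level per kilobase in each sector. Other genes were named after their values were seen. Alternatives were other scalings (DESeq2 size factors, upper quartile), no filter, at least 1 CPM in 3 libraries, DESeq2's Wald test, edgeR's likelihood ratio test, a block for the letter of the heading, no limit on the fold change, each library left out, and coding length or raw counts for shares. The principal transcript length was added after seeing the data.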

Additional observations from a re-analysis of the deposited data

How the results depend on the processing

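No paired analysis was possible because the column headings carry an animal number and not the replicate number of the sample titles. Under 13 alternatives, 359 of 364 member log2 fold changes kept their direction and none passed the thresholds, and the lowest Benjamini-Hochberg adjusted p of a member ran from 0.227 to 1.00 over these alternatives in edgeR's quasi-likelihood test, its likelihood ratio test and DESeq2. The 5 that turned were *Atp6v1g2* (-0.04 without L078, and up to 0.20 with another library left out), *Tmem199* (0.03 without L082 and 0.02 without L078, down to -0.06), *Ccdc115* (-0.01 without L081, up to 0.12) and *Rogdi* (-0.03 without L082, up to 0.20). The RAVE and regulator median was -0.03 without L082. The counts of members and partners called were 0 under every alternative, and the median over the members ranged from 0.12 to 0.39. The members whose groups do not overlap numbered 0 under upper quartile scaling (3.98% of all genes), 2 without the filter on low counts, where *Atp6v0a4* entered (4.48%), 24 without L078 (41.6%), 2 without L082 (16.4%) and 1 with any other library left out (6.91% to 9.60%). The heading letter as a block left the median at 0.22 and called 0 members.

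With coding length, the share of *Tcirg1* was 93.7% in WT, of *Atp6v0a2* 3.63% in WT and 3.16% in KO, of *Atp6v0d2* 87.2% and 87.8%, and of *Dmxl2* 12.4% and 11.3%. With raw counts these were 93.3% (WT) and 94.7% (KO) for *Tcirg1*, 3.94% and 3.43% for *Atp6v0a2*, 87.1% and 87.8% for *Atp6v0d2*, and 12.4% and 11.3% for *Dmxl2*. With the principal transcript length, *Atp6v0a2* had 2.30% in WT and *Dmxl2* 13.1% and 12.0%. These follow from the lengths alone. The cause of the other differences was not tested. The 4 members that did not pass the filter had at most 39 counts each, which limits what can be said of them.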
